A study of Mus musculus with 8 samples.

Results

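Transcripts of 8 genes of the B lineage were measured in RNA sequencing libraries made from purified mouse natural killer (NK) cells. The members were the rows of the deposited read count matrix with the symbols Cd79a, Cd79b, Igkc, Cd22, Ms4a1, Blk, Pax5 and Igj. All 8 of them had a row among the 27179 genes of the matrix, and all 8 were among the 13184 genes tested after a filter on low counts. Every member passed that filter through its ex vivo counts, so the culture contrasts below describe genes that had to be present ex vivo. Libraries came in 4 groups of 2, namely wild type and CIS-/- (CIS-null) cells taken ex vivo, and cells of both genotypes grown in vitro. CIS is a suppressor of cytokine signalling encoded by Cish. All mice were labelled C57BL/6, and their NK cells came from spleen, bone marrow and blood and were selected with microbeads against CD49b (DX5), an integrin. The labels do not say which agents or how long a culture the in vitro cells had, whether animals were pooled, or whether replicates were separate mice or cultures. The p-values therefore measure only the spread between these libraries, which may be technical.

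B cells recognise antigen through the B cell receptor, a membrane immunoglobulin joined to the signalling pair CD79A and CD79B. When B cells become plasma cells they switch off much of this receptor program, PAX5 included, and secrete large amounts of antibody, which in IgM and IgA is joined by the J chain. NK cells are innate lymphocytes that rearrange no immunoglobulin genes to make a receptor, so these transcripts are commonly used to look for B lineage RNA in an NK preparation.

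Library totals ran from 21.5 to 28.1 M counts, and levels are given as counts per M (CPM). Cish, the targeted gene, was ex vivo at 9.26 and 9.12 CPM in wild type and 1.29 and 2.64 in CIS-null, and, in vitro, 219.8 and 201.9 in wild type and 21.2 and 17.2 in CIS-null. Xist, which is made from the inactive X chromosome of female cells, was at 119.6 and 162.1 CPM in wild type ex vivo and 130.7 and 89.7 in CIS-null in vitro, and at most 0.322 CPM in the other groups. Y-linked Eif2s3y was at 34.1 and 21.7 CPM in wild type ex vivo, at most 0.0385 in CIS-null in vitro and at 70.4 to 135.2 in the other groups, so both transcripts were present in the 2 wild-type libraries taken ex vivo. Sex and genotype therefore cannot be told apart in either condition, nor sex and culture in either genotype. Summed over 10 NK cell markers, the level lay between 18032 and 33848 CPM in all 8 libraries. Gzma was the largest part, at 9596 to 11474 CPM ex vivo and 11678 to 25875 in vitro. With culture 8 of the 10 were called lower and 1 higher in each genotype. Over all genes tested, 31.6% were lower and 32.1% higher in wild type, and 37.5% and 34.8% in CIS-null. Itga2, the gene of CD49b, stood at 235.4 to 276.7 CPM ex vivo and 7.13 to 21.2 in vitro. All 10 markers had counts in every library, beside the B lineage transcripts described here.

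Promoter sequences from RefSeq (GRCm38.p6) were available for 4 members, Cd79a, Cd22, Pax5 and Igj (now named Jchain and matched by gene identifier). The 3 shown belong to members that behaved differently between the CIS-null ex vivo libraries: Cd79a and Igj differed 13.7-fold and 13.1-fold between the CIS-null replicates, and Cd22 1.35-fold. Each is the 250 bases before the transcript start of the table, read 5′ to 3′ on the gene's own strand. Capitals mark a match to 1 of 3 motifs searched on both strands: the octamer ATTTGCAT, the EBF-type palindrome CCCNNGGG and the ETS-type word AGGAAGTG.
Cd79a promoter, chr7:24897247-24897496, plus strand: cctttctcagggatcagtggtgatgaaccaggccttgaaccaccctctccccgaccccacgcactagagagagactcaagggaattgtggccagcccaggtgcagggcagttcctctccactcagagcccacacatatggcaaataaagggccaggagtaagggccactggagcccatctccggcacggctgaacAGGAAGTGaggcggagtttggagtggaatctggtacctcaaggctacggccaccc
Cd22 promoter, chr7:30879029-30879278, minus strand: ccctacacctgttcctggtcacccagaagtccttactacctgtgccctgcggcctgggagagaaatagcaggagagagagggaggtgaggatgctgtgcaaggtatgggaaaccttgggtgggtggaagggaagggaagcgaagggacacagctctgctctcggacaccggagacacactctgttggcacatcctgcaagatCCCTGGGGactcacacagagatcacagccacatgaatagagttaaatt
Igj promoter, chr5:88527898-88528147, minus strand: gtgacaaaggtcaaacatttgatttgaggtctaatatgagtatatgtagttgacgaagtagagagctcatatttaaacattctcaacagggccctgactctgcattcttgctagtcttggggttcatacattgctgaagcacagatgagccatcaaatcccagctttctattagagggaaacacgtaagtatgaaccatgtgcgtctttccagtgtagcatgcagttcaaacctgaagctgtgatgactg
The Cd79a window held the ETS-type word, whose first base lies 55 bases before the start, and this word occurred in 3.14% of 32851 promoter windows of the same length. The Cd22 window held the EBF-type palindrome 48 bases before the start, a match found in 11.8% of the windows. The gene record of Cd22 extends upstream of this start, to 30880342 on chromosome 7. None of the 3 motifs was found in the Igj or Pax5 windows, and the octamer occurred in 1.60% of all windows. These matches describe letters only and do not show binding.

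The B cell receptor genes were present in all 4 ex vivo libraries. Cd79a (chr7:24897497-24901858), the receptor's signalling alpha chain, had 121 and 93 counts in wild type and 315 and 27 in CIS-null. These are 5.09 and 3.67 CPM against 14.5 and 1.06. Cd79b (chr11:106311341-106314562), its partner chain, had 196 and 168 counts (8.25 and 6.63 CPM) in wild type and 460 and 62 (21.2 and 2.44 CPM) in CIS-null. For both chains the first CIS-null library lay above, and the second below, both wild-type libraries, so the groups overlapped.

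Igkc (chr6:70726435-70726754), the constant segment of the kappa light chain, held the most counts of the 8 members. It had 2568 and 1657 counts (108.1 and 65.4 CPM) in wild type ex vivo and 4509 and 644 (207.7 and 25.3 CPM) in CIS-null ex vivo. Its share of the members' counts was 51.2% to 54.6% in the 4 ex vivo libraries although the members' summed level ran from 47.6 to 380.1 CPM. Igj (chr5:88519809-88527897), the J chain of polymeric IgM and IgA, had 1770 and 882 counts (74.5 and 34.8 CPM) in wild type and 2134 and 190 (98.3 and 7.47 CPM) in CIS-null. The wild-type libraries again lay between the 2 CIS-null libraries.

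Of the surface proteins, Ms4a1 (chr19:11249679-11266149), which encodes CD20, had 114 and 93 counts (4.80 and 3.67 CPM) in wild type and 454 and 33 (20.9 and 1.30 CPM) in CIS-null. Cd22 (chr7:30865404-30880342), an inhibitory lectin that binds sialic acid, had 212 and 245 counts (8.92 and 9.67 CPM) in wild type and 272 and 236 (12.5 and 9.28 CPM) in CIS-null. Cd22 was the member with the smallest spread: its 4 ex vivo libraries lay between 8.92 and 12.5 CPM, and the second CIS-null library fell within the wild-type range.

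The kinase and the transcription factor were the lowest members. Blk (chr14:63372837-63417187), a Src-family kinase of the receptor pathway, had 27 and 29 counts (1.14 CPM in each) in wild type and 81 and 10 (3.73 and 0.393 CPM) in CIS-null. Pax5 (chr4:44524748-44710694), which maintains B cell identity, had 8 and 10 counts (0.337 and 0.395 CPM) in wild type and 28 and 7 (1.29 and 0.275 CPM) in CIS-null. At such counts a Pax5 ratio within the wild type, 0.853, had a 95% counting interval of 0.293 to 2.40.

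**Figure D1:**
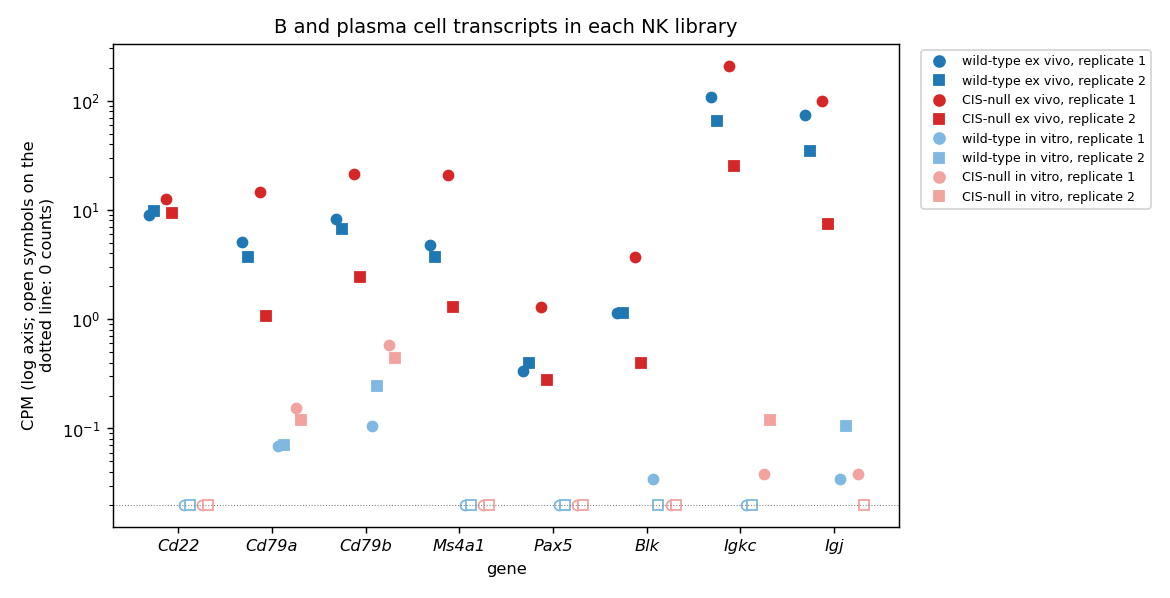
CPM of each member (log axis) in the 8 libraries; circles are replicate 1, squares replicate 2, and open symbols on the dotted line stand for 0 counts. For 7 of the 8 members both wild-type ex vivo libraries (dark blue) lie between the 2 CIS-null ex vivo libraries (dark red), and all in vitro values (pale) are at most 0.578 CPM.

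Levels were compared between genes only per length, as reads per kilobase per M (RPKM). In wild type ex vivo the order was Igkc at 271 RPKM ± 94.3 (SD, n = 2), Igj at 26.0 ± 13.3, Cd79b at 6.21 ± 0.954, Cd79a at 3.30 ± 0.757, Cd22 at 2.15 ± 0.123, Ms4a1 at 2.06 ± 0.387, Blk at 0.461 ± 0.00243 and Pax5 at 0.303 ± 0.0340. The values of neighbours in that order did not overlap, except those of Cd22 and Ms4a1. In CIS-null ex vivo Ms4a1, at 5.40 RPKM ± 6.74, stood ahead of Cd22, at 2.53 ± 0.532. There the values of neighbours overlapped except those of Igkc and Igj and those of Cd22 and Blk.

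The effect of genotype ex vivo was asked first. By edgeR's quasi-likelihood test, 0 of 8 members passed an adjusted p of 0.05, against 0.0607% of the 13184 genes tested (0.0303% called higher and 0.0303% called lower). None of the 8 had an unadjusted p under 0.05, against 844 of the 13184 genes tested, and DESeq2 and limma-voom each called 0. The fitted log2 fold changes (CIS-null over wild type) ran from -0.05 for Igj (SE 0.840) to 1.38 for Ms4a1 (SE 1.01), with edgeR adjusted p between 0.780 and 0.994. Cd22 had the smallest error: its fitted value was 0.23 with an SE of 0.211 (edgeR adjusted p = 0.802). The members' median log2 fold change was 0.74, beside 0.02 over all genes tested.

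Single libraries decided these values. Without the second CIS-null ex vivo library, the fitted log2 fold change was 1.73 for Cd79a and 2.31 for Ms4a1. Without the first CIS-null ex vivo library all 8 fitted changes were below 0, from -2.87 for Igj to -0.0027 for Cd22. In each case the lone library was assumed to vary like the other groups.

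The 2 CIS-null ex vivo libraries differed widely from each other in 7 members. The CPM ratio of replicate 1 to replicate 2 was 16.1 for Ms4a1 (95% counting interval 11.3 to 23.7), 13.7 for Cd79a (9.21 to 21.1), 13.1 for Igj (11.3 to 15.3) and 9.48 for Blk (4.90 to 20.5). It was 8.69 for Cd79b (6.65 to 11.5), 8.20 for Igkc (7.55 to 8.92) and 4.68 for Pax5 (2.0 to 12.7). Cd22 stood apart with a ratio of 1.35 (1.13 to 1.61), an interval that overlaps that of no other member. In wild type ex vivo the ratios were 0.853 to 2.14, and the 2 largest were those of Igj (2.14) and Igkc (1.65), the genes of secreted antibody.

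**Figure D2:**
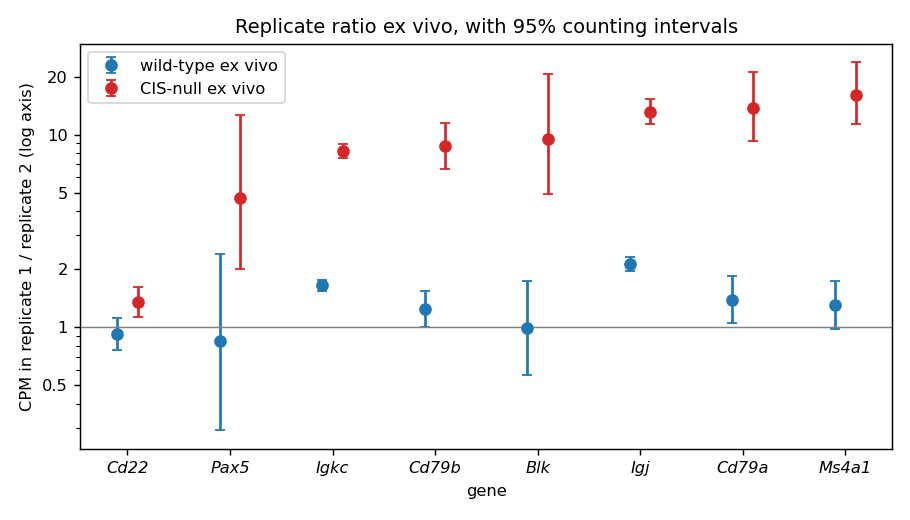
CPM in replicate 1 divided by CPM in replicate 2 (log axis) for each member ex vivo, with 95% counting intervals, which cover counting error only. In CIS-null (red) 7 members lie between 4.68 and 16.1 and Cd22 lies at 1.35, while all 8 wild-type ratios (blue) lie between 0.853 and 2.14.

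Counts set against those of Cd79a in the same library show how each member's ratio to the receptor varied. Cd79b stood at 1.62, 1.81, 1.46 and 2.30 counts per Cd79a count in wild type replicates 1 and 2 and CIS-null replicates 1 and 2, and Ms4a1 at 0.942, 1.00, 1.44 and 1.22. Igkc stood at 21.2, 17.8, 14.3 and 23.9. These 3 ratios, and that of Blk, differed at most 1.67-fold between libraries. The ratio of Igj had a 2.16-fold range and that of Pax5, with 7 to 28 counts, a 3.92-fold range. Cd22 stood at 1.75, 2.63, 0.863 and 8.74, a 10.1-fold range, with the highest value in the library where Cd79a was lowest. The counts of Cd22 therefore did not fall with those of the receptor genes in that library. Ratios per count carry the genes' lengths and were compared only within a gene.

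Markers of other cells also differed between the 2 CIS-null ex vivo libraries. Of the members, 7 of 8 were over 2-fold higher in replicate 1 than in replicate 2, against 333 of 13184 genes (2.53%). The same held for 10 of 13 other B cell surface genes, 7 of 10 T cell genes, 4 of 8 basophil genes and 5 of 9 MHC class II genes, but 0 of 10 NK cell genes. Summed T cell markers stood at 184.6 and 208.4 CPM in wild type and at 224.2 and 138.1 in CIS-null. Most of each T cell sum was Cd28, at 151.8 and 167.2 CPM in wild type and 171.6 and 115.5 in CIS-null. Summed basophil markers stood at 11.7 and 9.20 against 43.3 and 19.2, with no gene of either list at 0 in any of the 4. Of 8 erythroid and platelet genes, 4 were over 2-fold lower in replicate 1, and their summed level was 14.9 against 35.4 CPM. Their part in the replicate difference of the members was not tested. In bulk RNA, fewer cells of a type and less RNA per cell cannot be told apart.

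**Figure D3:**
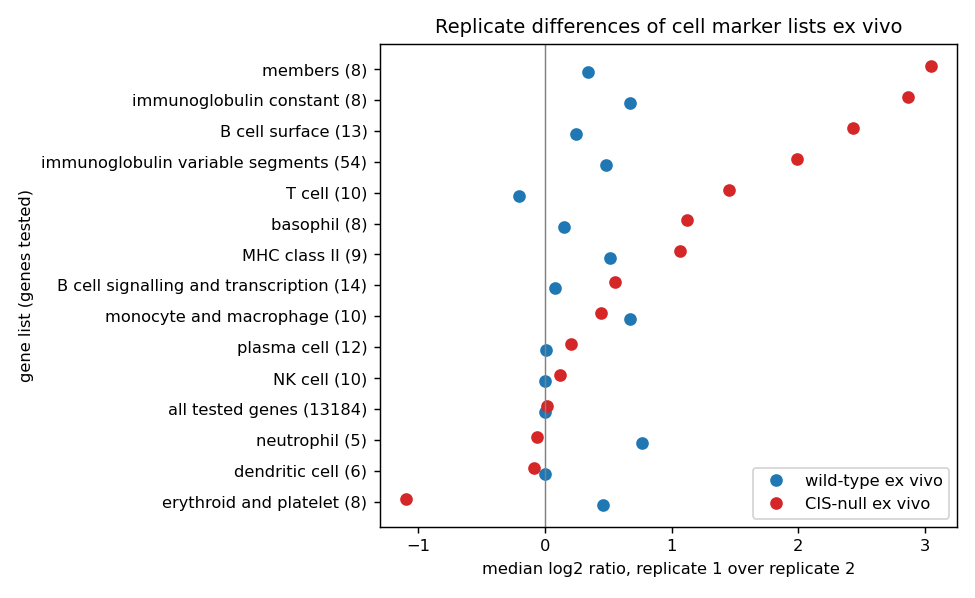
Median log2 ratio of replicate 1 over replicate 2 for each gene list ex vivo (genes tested in parentheses), for wild type (blue) and CIS-null (red). In CIS-null the members have the highest median, 3.05, and the NK cell list stands at 0.12, beside 0.02 over all genes tested.

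Most other B cell surface genes were also highest in the first and lowest in the second CIS-null library. Summed over 14 B cell surface genes the level was 126.4 and 125.5 CPM in wild type and 188.6 and 113.4 in CIS-null. Cd72, a coreceptor, held most of this sum at 101.8, 104.6, 125.0 and 99.6 CPM, and unlike most of the list it remained at 63.0 to 80.9 CPM in vitro. In genotype ex vivo edgeR called 0 of 13 B cell surface genes tested, 0 of 14 signalling and transcription genes, 0 of 12 plasma cell genes and 0 of 1 precursor gene. At an unadjusted p under 0.05 each of these 4 counts was also 0, against 844 of all 13184 genes tested. Among the most abundant genes of their own lists, the log2 fold change was 0.12 for Cd72 (SE 0.143) and 0.19 for Tnfrsf13c, the BAFF receptor (SE 0.302), of the surface list. In the signalling list it was -0.16 for Syk, a kinase that both B and NK cells use (SE 0.145).

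The 12 genes whose pattern over all 8 libraries came nearest to the members' median included Faim3, Spib, Cd180, Iglc2, Ly6d, Btla, March1, Pou2af1, Btk, Fcrla and Ctsh. Likeness was the root mean square difference between log2 CPM values, each centred on its own mean, and it was 0.26 to 0.62 for these 12 against a median of 2.74 over 11445 candidates. Spib, a transcription factor of the ETS family, stood at 2.57 and 2.09 CPM in wild type ex vivo, 6.59 and 1.06 in CIS-null ex vivo and at 0 in vitro. Over the 4 ex vivo libraries alone the 12 nearest included Hspa1b, Mzb1, Spib, Ly6d, Fcrla, Ccr7, Cd24a, Faim3, Cxcr5, Btla and Iglc2, at 0.16 to 0.32 against a median of 1.08. The nearest of them, Hspa1b, is an inducible heat shock gene. It stood at 4.25, 4.03, 11.3 and 1.69 CPM. On the same ex vivo measure Cd22 was at 0.95, the farthest of the members.

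The plasma cell list held both rare and abundant transcripts. The surface markers of plasma cells Tnfrsf17 (BCMA) and Sdc1 (CD138), chosen after their values were seen, were low ex vivo: Tnfrsf17 stood at 0.337 and 0.0789 CPM in wild type and 0.0461 and 0 in CIS-null, and Sdc1 at 0.0421, 0.0789, 0.415 and 0.118. Mzb1, a chaperone of B and plasma cells, followed the order of most members at 1.81, 1.07, 4.84 and 0.433 CPM. Secretory genes of the list ranged widely over the 8 libraries, with Xbp1 at 109.7 to 293.3 CPM and Fkbp11 at 0.276 to 1.68 CPM. In genotype in vitro edgeR called 5 of the 12 plasma cell genes tested, all higher in CIS-null, while 11% of all genes were called higher. Those with the lowest p were Txndc5, Xbp1, Creld2 and Fkbp11, genes of protein folding and secretion, with log2 fold changes of 0.65, 0.61, 0.57 and 2.29. Of the 7 B cell precursor genes, Vpreb2, Igll1 and Rag1, also named after their values were seen, had 0 counts in all 4 ex vivo libraries. The others had some: Vpreb3 had 17 and 10 counts in wild type ex vivo and 19 and 7 in CIS-null ex vivo. Vpreb1 had 2, 5, 2 and 5 in the same order, Rag2 1, 0, 0 and 0 and Dntt 0, 0, 1 and 1.

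Heavy chain constant genes were described by class. Ighm, of IgM, had the most counts: 7320 and 7327 in wild type ex vivo and 10543 and 5158 in CIS-null ex vivo. It stood at 60.5, 78.8, 33.5 and 191.0 counts per Cd79a count, a 5.71-fold range, so it did not keep a fixed ratio to the receptor. Igha, of IgA, had 3509 and 906 counts in wild type and 419 and 5 in CIS-null. Each wild-type value was thus above each CIS-null value, and the replicates differed 4.13-fold in wild type and 98.1-fold in CIS-null (95% counting interval 41.7 to 303.7). The fitted log2 fold change of Igha was -3.26 (SE 1.10), and it did not pass (edgeR adjusted p = 0.714).

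The IgG genes were minor. Ighg3 had 2 and 0 counts in wild type ex vivo and 42 and 58 in CIS-null ex vivo, groups that did not overlap (edgeR adjusted p = 0.0748, log2 fold change 5.53, SE 0.784). Ighg2c had 4 and 2 counts in wild type and 234 and 1 in CIS-null, so that 1 library held nearly all of them. Ighg2b had counts in that library alone, 21 of them. Ighg1 had 19, 14, 25 and 22 counts in the same order, Ighd, of IgD, had 118, 91, 210 and 66, and Ighe had 0 in every library. Within the CIS-null pair the counts of Igha and Ighg2c were thus far apart, while those of Ighg1 and Ighg3 lay close together. Of 8 immunoglobulin constant genes tested edgeR called 0 in genotype ex vivo, and 2 had an unadjusted p under 0.05. Over all 13184 genes tested, 844 had such a p.

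Per kilobase, Ighm held 62.1% and 85.4% of the heavy chain counts in wild type ex vivo and 89.2% and 96.3% in CIS-null ex vivo. Igha held 36.2%, 12.9%, 4.32% and 0.114% in the same order. Among light chain counts, Igkc held 72.7% (95% Wilson interval 71.2% to 74.2%) and 83.3% (81.6% to 84.9%) in wild type, and 77.4% (76.3% to 78.4%) and 92.4% (90.2% to 94.1%) in CIS-null. The kappa share differed between the replicates of each genotype by more than these intervals, which cover counting error only. The rest came from lambda genes: Iglc1 had 561, 123, 559 and 12 counts, Iglc2 111, 115, 357 and 26, and Iglc3 291, 94, 404 and 15. Iglc2 and Iglc3 are near-identical, so the split between them is uncertain. In the in vitro libraries, with 0, 0, 1 and 3 light chain counts, Ighm still held 98.7% to 99.2% of heavy chain counts per kilobase. It stood there at 87.5 to 154.7 CPM. How much of the ex vivo Ighm, and so of these class shares, came from B lineage cells was not tested.

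**Figure D4:**
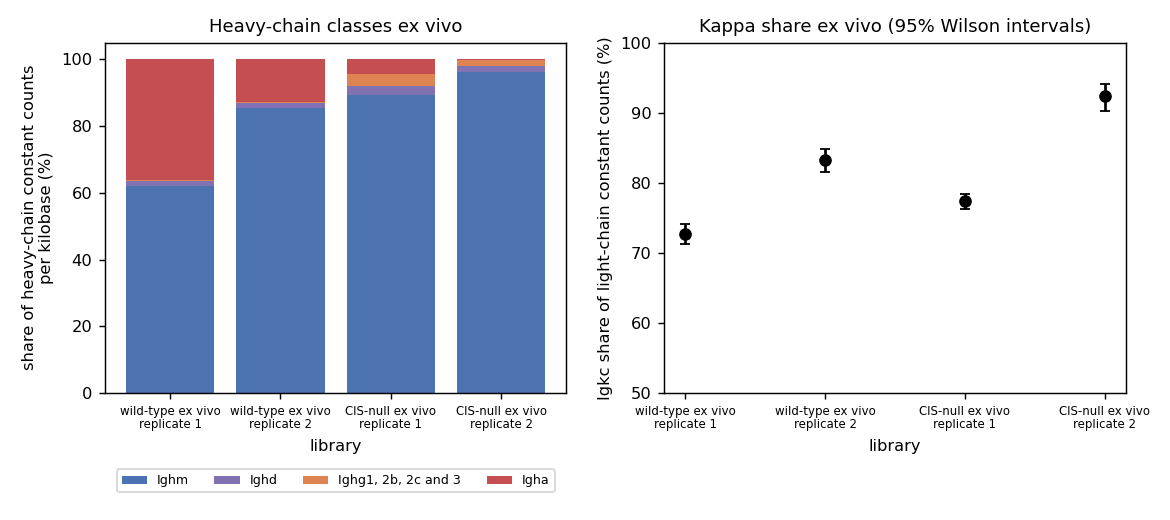
Left: share of heavy chain constant counts per kilobase (%) by class in each ex vivo library. Right: kappa share of light chain constant counts (%, axis from 50) with 95% Wilson intervals; Igha is 36.2% of the heavy chain in the first wild-type library and 0.114% in the second CIS-null library.

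Variable segments, the parts that differ between B cell clones, were spread over many genes. Of 103 kappa variable segments, 77 and 78 had counts in wild type ex vivo and 86 and 69 in CIS-null ex vivo. The top segment differed in each library: Igkv8-19 held 10.5% of kappa variable counts, Igkv1-117 21.1%, Igkv1-135 16.1% and Igkv12-89 12.6%. Igkv1-117 had 26 and 378 counts in the wild-type replicates, and Igkv1-135 had 704 and 10 in the CIS-null replicates. Any 2 libraries shared 28.1% to 44.3% of their kappa composition (the sum over segments of the lower share), with 44.3% for the wild-type pair and 39.4% for the CIS-null pair. Iglv1, the main lambda segment, had 783, 165, 807 and 7 counts. Reads of similar segments cannot be assigned with certainty, since the counting of shared reads was not stated.

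After culture the members were nearly absent. Their summed level fell from 211.1 and 125.4 CPM to 0.243 and 0.422 CPM in wild type, and from 380.1 and 47.6 CPM to 0.809 and 0.681 CPM in CIS-null. Together the 8 genes had 7, 12, 21 and 17 counts in the 4 in vitro libraries. All 8 were lower in vitro by edgeR in wild type, where 31.6% of all genes tested were called lower and 32.1% higher (63.7% in all). All 8 were also lower in CIS-null, where 37.5% were called lower and 34.8% higher (72.4% in all). The ex vivo and in vitro values of no member overlapped in either genotype, but the share of all genes without overlap was not counted. Since the members passed the low-count filter through their ex vivo counts, this separation carries little weight.

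Cd22, Ms4a1 and Pax5 had 0 counts in all 4 in vitro libraries. Taking 3 counts over the group as the floor, Cd22 was at least 177.6-fold lower in wild type and at least 182.9-fold lower in CIS-null (edgeR adjusted p = 1.07e-05 and 7.1e-06). Ms4a1 was at least 80.4-fold and 175.4-fold lower (adjusted p = 0.0164 and 0.00588). Pax5, with few counts to lose, was at least 6.99-fold and 12.6-fold lower (adjusted p = 0.0214 and 0.00658). These floors reflect depth and set no upper limit on the change.

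The antibody genes fell furthest in counts. Igkc had 0 and 0 counts in wild type in vitro, at least 1642-fold lower than ex vivo (edgeR adjusted p = 0.000866), and 1 and 3 counts in CIS-null in vitro, 1392-fold lower (95% counting interval 543.2 to 5110, adjusted p = 0.000579). Igj had 1 and 3 counts in wild type, 772.8-fold lower (301.5 to 2839), and 1 and 0 in CIS-null, a ratio of 2511 (450.1 to 99202). Blk had 1 and 0 counts in wild type, a ratio of 65.3 (11.2 to 2624), and 0 and 0 in CIS-null, at least 32.8-fold lower.

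Only the receptor chains kept a few counts in every in vitro library. Cd79b had 3 and 7 counts in wild type and 15 and 11 in CIS-null, which are 0.104, 0.246, 0.578 and 0.441 CPM. It was 42.4-fold lower than ex vivo in wild type (22.8 to 89.2) and 21.7-fold lower in CIS-null (14.6 to 33.5). Cd79a had 2, 2, 4 and 3 counts and was 62.4-fold (24.0 to 231.0) and 52.8-fold lower (25.3 to 132.3). In vitro, both chains were higher in each CIS-null library than in each wild-type library, but neither passed: Cd79b differed by 1.52 on the log2 scale with an SE of 1.48, and Cd79a by 0.93 with an SE of 2.27 (edgeR adjusted p = 0.481 and 0.795).

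In genotype in vitro edgeR called 0 of 8 members, against 25.6% of all genes tested, and in the test of the difference between the 2 genotype effects it called 0 of 8, against 0.137% (0.0531% above 0 and 0.0834% below). No member had an unadjusted p under 0.05 in either, against 5292 and 2586 of the 13184 genes tested, and DESeq2 and limma-voom called 0. With a library left out, the log2 fold change of Cd79b ran from 1.07 to 2.24 in genotype in vitro. For the difference it ran from 0.0085 to 3.13. Whether Cd79b passed depended on which library was left out. Ex vivo libraries enter the in vitro contrast through the low-count filter, the scaling and the estimate of the spread, which all groups share. The in vitro counts of the other 6 members, at most 4 over a group, cannot show a genotype difference at this depth.

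Other immunoglobulin genes did not all fall alike. Ighm kept 4452 and 2737 counts in wild type in vitro and 2379 and 2184 in CIS-null in vitro, or 42.1% and 26.9% of its ex vivo level. In log2 terms it changed by -1.25 with an SE of 0.360 in wild type, and by -1.94 with an SE of 0.368 in CIS-null (edgeR adjusted p = 0.0149 and 0.00141). Igha kept 6 and 8 counts in wild type, a 367.6-fold lower level (218.9 to 672.9), and 13 and 10 in CIS-null, 19.9-fold lower (13.1 to 31.8). Ighd was 8.40-fold and 22.9-fold lower, and the 3 lambda constant genes were at 0 in all 4 in vitro libraries. All 8 immunoglobulin constant genes tested were lower in CIS-null and 7 of 8 in wild type, where Ighg3 had 2 and 0 counts ex vivo and 5 and 1 in vitro. Over all genes tested, 37.5% were called lower in CIS-null and 31.6% in wild type. Ighg1 and the 3 lambda constant genes, at 0 in vitro, passed the low-count filter only through ex vivo counts. They could only be called lower, so these counts carry little weight. Ighm counts thus remained without light chain counts, since kappa and lambda constants together had 0, 0, 1 and 3.

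**Figure D5:**
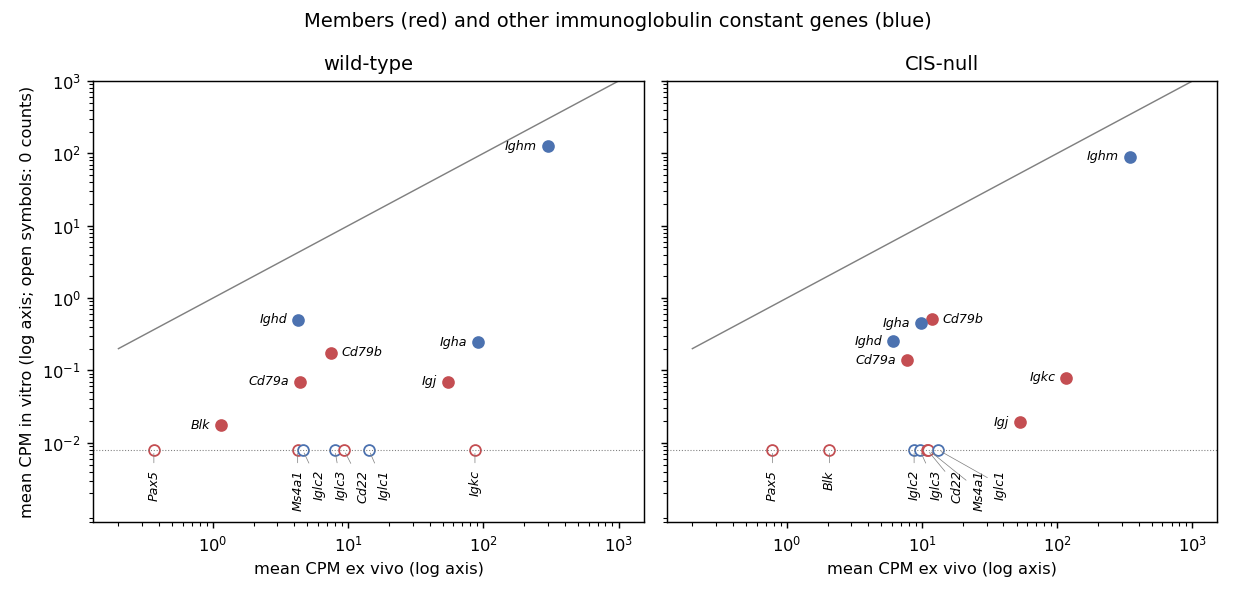
Mean CPM of 2 libraries ex vivo (x, log axis) against in vitro (y, log axis) for the members (red) and Ighm, Ighd, Igha and the lambda constant genes (blue), wild type left and CIS-null right; the line marks equal levels and open symbols had 0 counts in vitro. Ighm lies nearest to the line, at 42.1% and 26.9% of its ex vivo level, and the other genes plotted lie farther below it.

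Some heavy chain variable segments were higher in culture. Ighv1-23 had 7, 9, 8 and 6 counts in the ex vivo libraries and 95, 95, 75 and 77 in vitro. In wild type it rose by 3.33 on the log2 scale, with an SE of 0.314 and an edgeR adjusted p of 4.15e-05. In CIS-null it rose by 3.30, with an SE of 0.323 and an adjusted p of 3.24e-05. Ighv1-82 had 3, 2, 3 and 0 counts ex vivo and 63, 89, 70 and 86 in vitro, and rose by 4.64 and 5.48 on the log2 scale (adjusted p = 0.00026 and 0.000104). Both were named for having the most in vitro counts and passed the low-count filter through those libraries, so their direction follows from that choice and these tests support nothing. Of 54 variable segments tested, 38 were lower and 4 higher in wild type, and 36 lower and 3 higher in CIS-null. Over all genes tested, 31.6% were lower and 32.1% higher in wild type, and 37.5% and 34.8% in CIS-null. Of all 226 segments, 184 had 0 counts in both libraries of each cultured group. A segment at 0 in culture could pass the filter only through its ex vivo counts, so these counts support nothing by themselves either. In vitro kappa variable counts were 10, 9, 12 and 20, and Igkv14-111, singled out after its values were seen, held 10, 7, 12 and 18 of them.

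The remaining B lineage lists split in culture. Over all genes tested, 31.6% were called lower and 32.1% higher in wild type, and 37.5% lower and 34.8% higher in CIS-null. Of 13 B cell surface genes tested, 10 were lower and 0 higher in wild type, and 11 lower and 0 higher in CIS-null. Their median log2 change was -4.25 and -5.03 with genes at 0 in vitro set to their bound, beside 0.00 and -0.05 over all genes tested. The same median for the members was -6.18 and -6.59. Of the 13 surface genes, 6 had 0 counts in wild type in vitro and 5 in CIS-null in vitro. A gene at 0 there passed the low-count filter only through its ex vivo counts, so it could only be called lower. The log2 change of Tnfrsf13c was -3.88 in wild type and -4.89 in CIS-null (SE 0.388 and 0.430), and that of Cxcr5, a chemokine receptor of follicles, was -3.55 and -5.99 (SE 0.858 and 1.05). Tnfrsf13b (TACI), another receptor for BAFF, fell by 4.71 in wild type (SE 0.768) and by 3.09 in CIS-null (SE 0.723). Cr2, the complement receptor CD21, fell by 5.61 in CIS-null (SE 1.28), and Cd180, a relative of the toll-like receptors, had 0 counts in vitro.

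Of 14 signalling and transcription genes, 8 were lower and 3 higher in wild type, and 10 lower and 2 higher in CIS-null. In each cultured group 3 of these 14 had 0 counts, and those could only be called lower. Syk stood at 351.4 and 341.1 CPM in wild type ex vivo and 272.7 and 348.8 in CIS-null ex vivo, and its log2 change in culture was -2.84 and -4.15. Bach2, a repressor found in B and other lymphocytes, changed by -2.38 and -3.17. Lyn, a Src-family kinase, fell by 0.51 in wild type and by 0.96 in CIS-null, where it was among the 4 with the lowest p. Swap70, which acts on the cytoskeleton, rose by 1.12 and 0.77, and Ciita, the MHC class II transactivator, by 2.56 and 2.04. In genotype in vitro 5 of these 14 were called, all lower in CIS-null (14.6% of all genes were called lower), with the lowest p for Syk at -1.47, Pou2f2 at -1.28, Bach2 at -1.16 and Swap70 at -0.48.

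Of 9 MHC class II genes, which B cells share with myeloid cells, 6 were lower in culture and 0 higher in each genotype. Over all genes tested, 31.6% were called lower with culture in wild type and 37.5% in CIS-null. In genotype ex vivo edgeR called 0 of 9 (1 at an unadjusted p under 0.05, against 844 of all 13184 genes tested). Cd74, the invariant chain, was at 87.0 and 56.2 CPM in wild type ex vivo and 142.4 and 77.9 in CIS-null ex vivo, and at 2.85, 1.86, 0.655 and 0.961 in vitro. Its log2 change was -4.92 in wild type (SE 0.383) and -7.09 in CIS-null (SE 0.450). H2-Aa changed by -6.71 and -6.74, H2-Eb1 by -5.02 and -5.16 and H2-Ob by -3.77 and -3.42. H2-Ab1, H2-Oa and H2-DMb1 were not called with culture in either genotype. H2-Ab1 changed by -0.15 (SE 0.449) in wild type and -0.59 (SE 0.438) in CIS-null (edgeR adjusted p = 0.785 and 0.250). In genotype in vitro H2-DMb1 alone of the 9 was called, at 1.36 (SE 0.395, edgeR adjusted p = 0.0378). Of the 12 plasma cell genes, 4 were higher and 3 lower in wild type, and 6 higher and 3 lower in CIS-null. Over all genes tested, the shares called higher and lower were 32.1% and 31.6% in wild type and 34.8% and 37.5% in CIS-null. Irf4, a factor of plasma cells and activated lymphocytes, rose by 2.44 and 2.77, Ssr4 by 1.34 and 1.83 and Xbp1 by 0.71 and 1.14, while Txndc5 changed by -1.38 and -0.85. The 1 precursor gene tested, Vpreb3, was lower in CIS-null alone (log2 fold change -1.81, SE 0.720, adjusted p = 0.0479), and the difference between genotypes did not pass (edgeR adjusted p = 0.714).

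Markers of other cells moved in culture as well. The counts below stand beside 31.6% of all genes called lower and 32.1% higher in wild type. In CIS-null these shares were 37.5% and 34.8%. A gene at or near 0 in vitro passed the low-count filter only through its ex vivo counts. It could only be called lower, so counts of such genes support nothing by themselves. Of 5 neutrophil genes tested, 5 and 4 were lower in wild type and CIS-null, and of 8 erythroid and platelet genes 8 and 8. In vitro 4 and 5 of these neutrophil genes, and 3 and 3 of the erythroid and platelet genes, had 0 counts. Of 10 monocyte and macrophage genes, markers of cells that also carry MHC class II, 6 and 7 were lower and 2 and 2 higher. In vitro 3 and 3 of these 10 had 0 counts. Their summed level was 915.0 to 1239 CPM ex vivo and 1150 to 1752 in vitro, and most of it was Ccr2 (792.1 to 1727 CPM), singled out after its values were seen. Of 8 basophil genes, 5 and 6 were lower and 2 and 2 higher, with Fcer1a, Ms4a2, Il4 and Prss34 at 0 in vitro and a summed level of 27.6 to 72.4 CPM there. Summed neutrophil markers went from 5.74 to 10.8 CPM ex vivo to at most 0.0400 CPM in vitro, with 8 of 10 genes at 0 in all 4 libraries. Summed T cell markers were at 226.8 and 260.2 CPM in wild type in vitro and at 932.3 and 934.0 in CIS-null in vitro, where 5 of 10 T cell genes were called higher than in wild type (11% of all genes were). With culture in wild type 5 of the 10 were lower and 2 higher, and in CIS-null 2 lower and 4 higher, so the sum does not describe most genes of this list. Their part in the results on the members was not tested. Culture duration and agents are not given in the sources used here, so these changes cannot be tied to any one of them.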

How the data were processed

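RNA was sequenced from 8 libraries, 2 in each of 4 groups. Per the submitters' processing notes the authors used Subread, featureCounts and limma with GRCm38/mm10; versions and settings, strand and shared reads included, are not given in the sources used here, so near-identical, overlapping and antisense genes are uncertain. Raw counts were deposited as 1 matrix of 27179 genes, of which 565 carry no symbol. The authors also gave log2 RPKM per library for 12372 genes, used for 1 alternative in which Pax5 and Igkc were not analysed.

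Counts were kept where edgeR's filterByExpr (minimum count 10, minimum total 15) passed them, scaled by TMM, and fitted in 1 quasi-likelihood model over the 4 groups with 4 residual degrees of freedom (edgeR 4.0.16, R 4.3.3). Adjusted p are Benjamini-Hochberg over 13184 genes, with a threshold of 0.05, and the SE is the log2 fold change divided by the root of F. CPM use TMM-scaled totals and RPKM add the gene lengths of the matrix. Count ratios carry 95% exact intervals, and these, like all intervals and floors here, cover counting error only. The scripts were tested on simulated data. Alternatives were DESeq2 1.42.0, limma 3.58.1 (voom and log2 RPKM), robust spread, RLE and unscaled totals, other filters, the compared samples alone, other immunoglobulin genes left out, each library left out, and replicate blocks.

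The members and lists were chosen with earlier results of these data known. Named were the members, all immunoglobulin constant genes, up to 4 called genes of lowest p per other B lineage list and comparison (else up to 3 of highest CPM), the 2 variable segments with most counts per group and the 12 nearest patterns, of which 1 gene is not reported here; likeness used a prior count of 2 and genes of at least 1 mean CPM. Faim3 is listed as Fcmr and Emr1 as Adgre1 in current tables. Gene positions come from RefSeq, GRCm38.p6.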

Additional observations from a re-analysis of the deposited data

Results flagged for a closer look

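Igha, the constant gene of IgA, had opposite fitted signs in the 2 conditions. Its log2 fold change, CIS-null over wild type, was -3.26 ex vivo (SE 1.10, edgeR adjusted p = 0.714), where both CIS-null libraries (419 and 5 counts) lay below both wild-type libraries (3509 and 906). In vitro it was 0.87 (SE 3.06, adjusted p = 0.866), where both CIS-null libraries (13 and 10 counts) lay above both wild-type libraries (6 and 8). The difference between these effects was 4.14 (SE 3.35) and did not pass (edgeR adjusted p = 0.536).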

How the results depend on the processing

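In genotype ex vivo the number of members called was 0 under every alternative that kept 2 libraries per group, and could change with 1 library left out. The summed members' log2 ratio was 0.35 and ran from -1.82 to 1.18 with a library left out; -1.82 was without the first CIS-null ex vivo library. Fitted signs turned under limma-voom (Cd79a -0.24, Cd79b -0.13, Igkc -0.23) and limma on log2 RPKM (Cd79a -0.21, Cd79b -0.070), and with a library left out the ranges were -0.0027 to 0.43 for Cd22, -2.04 to 1.73 for Cd79a, -1.61 to 1.51 for Cd79b, -1.70 to 2.31 for Ms4a1, -0.41 to 1.80 for Pax5, -1.52 to 1.71 for Blk, -1.78 to 1.26 for Igkc and -2.87 to 0.85 for Igj. In genotype in vitro and in the interaction the number of members called could also change with a library left out. The summed ratio in vitro, 1.16, then ran from 0.82 to 1.61, and the interaction of Cd79a from -0.80 to 2.97.

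In culture all members kept their direction under every alternative run. In wild type 5 were called at 5 CPM or more in 2 libraries, where 5 were tested, 6 by limma-voom, 7 with robust spread and 5 to 8 with a library left out, 5 being without the second wild-type in vitro library, which lost Ms4a1, Pax5 and Blk. The summed ratio, -8.98, was -7.94 without Igkc. In CIS-null 5 were called at that filter, where 5 were tested, and 4 by limma-voom; the summed ratio, -8.16, ran from -8.99 to -6.0 with a library left out, the last without the first CIS-null ex vivo library. Where no fewer genes or samples entered, the cause was not tested.

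With the replicate number as a block, members called were 0, 0, 0, 8 and 8 in the 5 comparisons, as without it, and the sign of Igkc ex vivo turned (-0.16). Same-numbered libraries shared only a number, with correlations of replicate differences over genes from -0.23 to 0.15. A crossed replicate block in CIS-null, added after seeing the data, called all 7 members that were tested in it. With 2 libraries per group and at most 26 counts of any member in a cultured group, depth and replicate number limit all genotype contrasts in vitro.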
